A study of Mus musculus with 10 samples.

Results

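The 7 genes Nras, Hras, Araf, Braf, Map2k1, Map2k2 and Mapk3, which encode RAS, RAF, MEK and ERK proteins, were followed in the pancreas of mice that carried 0, 1 or 2 floxed alleles of Insr, the gene of the insulin receptor. They were taken by symbol from the 24421 genes of a raw count table, and all 7 passed the filter on low counts that left 13688 genes to test. Each library came from the pancreas tail of 1 female mouse aged 12 weeks, and RNA was counted from the whole tissue piece. All mice carried Ptf1aCreER, a tamoxifen-inducible Cre recombinase under Ptf1a, a gene of acinar cells, and nTnG, a nuclear reporter of Cre activity. The 3 Insr WT libraries had 2 intact Insr alleles (Insrw/w), the 3 Insr Het libraries 1 floxed allele (Insrw/f) and the 4 Insr KO libraries 2 floxed alleles (Insrf/f). Cre can act only in cells that have expressed Ptf1a, so other cells in the piece are expected to keep Insr. The series asks, by its title, how the insulin receptor of acinar cells acts on digestive enzyme production and inflammation in obesity-associated pancreatic cancer initiation.

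RAS proteins are small GTPases at the inner face of the plasma membrane that switch on when receptors such as the insulin receptor recruit exchange factors. Active RAS recruits RAF kinases, RAF phosphorylates the MEK kinases, and MEK phosphorylates the ERK kinases, which then act on cytosolic and nuclear targets. In pancreatic acinar cells this cascade is known for its part in the shift of acinar cells to a duct-like state. Its activity is set mainly by nucleotide exchange and phosphorylation, which transcript counts do not measure.

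The libraries held 11718559 to 19024351 gene counts, with overlapping depths between the groups. Digestive enzyme genes, the defining transcripts of acinar cells, took 61.2% to 80.8% of the counts in 9 libraries and 16.6% in WT-2404 (each library is named by genotype and mouse number). WT-2404 stood apart from the rest, and values against WT that moved by over 1.5 times without it are given both ways. Levels are given as counts-per-million (CPM) after TMM scaling, and TMM factors ran from 0.596 in KO-2126 to 3.54 in WT-2404. Scaling by library size alone instead moves the median log2 fold change of all genes from 0.03 to -1.17 between KO and WT and from 0.0046 to -1.36 between Het and WT. Summed fibroblast markers ran from 1577 to 5602 CPM in WT, 638 to 1274 in Het and 586 to 1434 in KO libraries. Summed macrophage markers ran from 472 to 1918 CPM in WT, 253 to 384 in Het and 145 to 541 in KO libraries. None of the 11 fibroblast or 10 macrophage markers was at 0 in a whole group. Insr itself, the targeted gene, was at 21.0 to 40.5 CPM in WT, 28.2 to 44.2 CPM in Het and 22.7 to 35.5 CPM in KO libraries, with a log2 fold change between KO and WT of 0.09 (SE 0.26, edgeR adjusted p = 0.864). Its level therefore did not separate the genotypes, and since counts are per gene, not per exon, it does not check the deletion; WT, Het and KO are the genotypes as labelled.

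The 250 bases before the RefSeq start site are shown for Nras and Hras, because the mean levels of these paralogs in the floxed groups lay on opposite sides of the WT means. Capitals mark matches, on either strand, to 5 motifs: GGGCGG (bound by SP1 factors), CCAAT (bound by NF-Y), the TATA box TATAAA, the ETS factor motif CCGGAAG and the CREB factor motif TGACGTCA. The windows are Nras chr3:103058035-103058284 (plus strand) and Hras chr7:141194005-141194254 (minus strand, printed 5′ to 3′ along the gene), from RefSeq on GRCm38.p6.
Nras: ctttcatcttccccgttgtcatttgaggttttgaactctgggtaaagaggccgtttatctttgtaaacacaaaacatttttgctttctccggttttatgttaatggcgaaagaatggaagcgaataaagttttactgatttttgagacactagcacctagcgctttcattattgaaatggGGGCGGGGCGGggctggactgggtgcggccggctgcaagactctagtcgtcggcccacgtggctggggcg
Hras: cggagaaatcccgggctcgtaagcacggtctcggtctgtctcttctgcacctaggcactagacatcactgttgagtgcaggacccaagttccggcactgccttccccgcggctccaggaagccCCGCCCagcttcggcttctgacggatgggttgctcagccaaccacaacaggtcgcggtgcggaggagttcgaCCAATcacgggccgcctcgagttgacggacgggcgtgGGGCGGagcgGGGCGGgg
The Nras window holds 2 GGGCGG matches that overlap by their end base, and no other match. The Hras window holds 3 GGGCGG matches and 1 CCAAT match. Of 32851 promoter windows of this length, 32.7% hold GGGCGG and 33.9% hold CCAAT on either strand. G and C make up 48.4% of the Nras window and 65.6% of the Hras window. A match describes letters only.

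Nras encodes N-RAS, 1 of the RAS GTPases, and lies at chr3:103058285-103067914 on the plus strand of GRCm38. Its transcript averaged 20.4 ± 6.57 CPM over WT mice (SD, n = 3), 12.7 ± 1.84 CPM over Het mice (SD, n = 3) and 11.9 ± 1.18 CPM over KO mice (SD, n = 4). Among WT mice, WT-2404 had 27.6 CPM, WT-1860 had 18.9 CPM and WT-2067 had 14.7 CPM. Among Het mice, Het-2066 had 12.3 CPM, Het-1770 had 14.7 CPM and Het-2042 had 11.1 CPM. Among KO mice, KO-2079 had 12.2 CPM, KO-2070 had 11.2 CPM, KO-2124 had 13.5 CPM and KO-2126 had 10.8 CPM. All 4 KO libraries lay below all 3 WT libraries, while Het-1770 reached the lowest WT library. Between KO and WT the log2 fold change came to -0.78 (SE 0.21), a KO level of 0.584 times WT, and did not pass in edgeR's quasi-likelihood test (adjusted p = 0.116, unadjusted p = 0.00323). Het against WT gave -0.69 (SE 0.23, edgeR adjusted p = 0.184), and KO against Het gave -0.09 (SE 0.22, edgeR adjusted p = 1.0). The first 2 comparisons share the WT libraries.

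The Nras difference varied with the WT library left out. Without WT-2404 it was -0.49 in KO against WT (edgeR adjusted p = 0.51) and -0.39 in Het against WT. Without WT-2067 it was -0.96 between KO and WT and -0.87 between Het and WT, and both passed in edgeR (adjusted p = 0.0224 and 0.0404). In that setting 13.6% and 8.19% of all genes passed. DESeq2 also placed KO against WT past the threshold, at -0.81 (adjusted p = 0.0338), as it did 7.37% of all genes. With the enzyme share of each library as a covariate the KO against WT value was -0.38 (edgeR adjusted p = 0.888). The WT libraries with more Nras were those with more fibroblast and macrophage marker counts. WT-2404 had 5602 and 1918 CPM of these markers, WT-1860 had 2447 and 744 CPM, and WT-2067 had 1577 and 472 CPM. That order did not hold among Het mice, where Het-2042 had the most of both, 1274 and 384 CPM, and the least Nras. Among KO mice, KO-2124, with 1015 and 541 CPM, had the most Nras, and KO-2079, with 1434 and 459 CPM, came next. KO-2070, with 586 and 145 CPM, and KO-2126, with 626 and 168 CPM, had less of both markers and less Nras. In KO against WT, 10 of 11 fibroblast and 10 of 10 macrophage markers had a log2 fold change below 0, beside 48.1% of all genes. Their medians were -1.58 and -1.70. WT-2404 had the most of both markers, and these medians were not computed without it. The part of these cells in the Nras result was not tested, and fewer cells of a type cannot be told apart from less RNA per cell in these tissue pieces.

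Hras encodes H-RAS and lies at chr7:141189105-141194005 on the minus strand. It averaged 13.1 ± 0.734 CPM over WT mice (SD, n = 3), 17.1 ± 2.72 CPM over Het mice (SD, n = 3) and 17.0 ± 3.33 CPM over KO mice (SD, n = 4). Among WT mice, WT-2404 had 12.7 CPM, WT-1860 had 13.9 CPM and WT-2067 had 12.7 CPM. Among Het mice, Het-2066 had 15.9 CPM, Het-1770 had 20.2 CPM and Het-2042 had 15.2 CPM. Among KO mice, KO-2079 had 15.2 CPM, KO-2070 had 20.9 CPM, KO-2124 had 13.4 CPM and KO-2126 had 18.3 CPM. The 3 WT libraries were close together and below all 3 Het libraries, while KO-2124 lay among them. The log2 fold change was 0.37 (SE 0.19) for KO over WT and 0.38 (SE 0.20) for Het over WT, and neither passed in edgeR (adjusted p = 0.257 and 0.291). After TMM scaling WT-2404, low in enzymes, lay near the other WT libraries in Hras, and without it the log2 fold changes were 0.33 and 0.37. By library size alone Hras was at 44.7 CPM in WT-2404, 21.8 CPM in WT-1860 and 11.1 CPM in WT-2067. The highest libraries, KO-2070, Het-1770 and KO-2126, had enzyme shares of 80.8%, 79.3% and 80.6%. KO-2124 had a share of 65.4%, and WT-2067, as low in Hras, had 74.6%. The part of enzyme share in the Hras level was not tested. KO against Het gave -0.02 (SE 0.19).

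**Figure D1:**
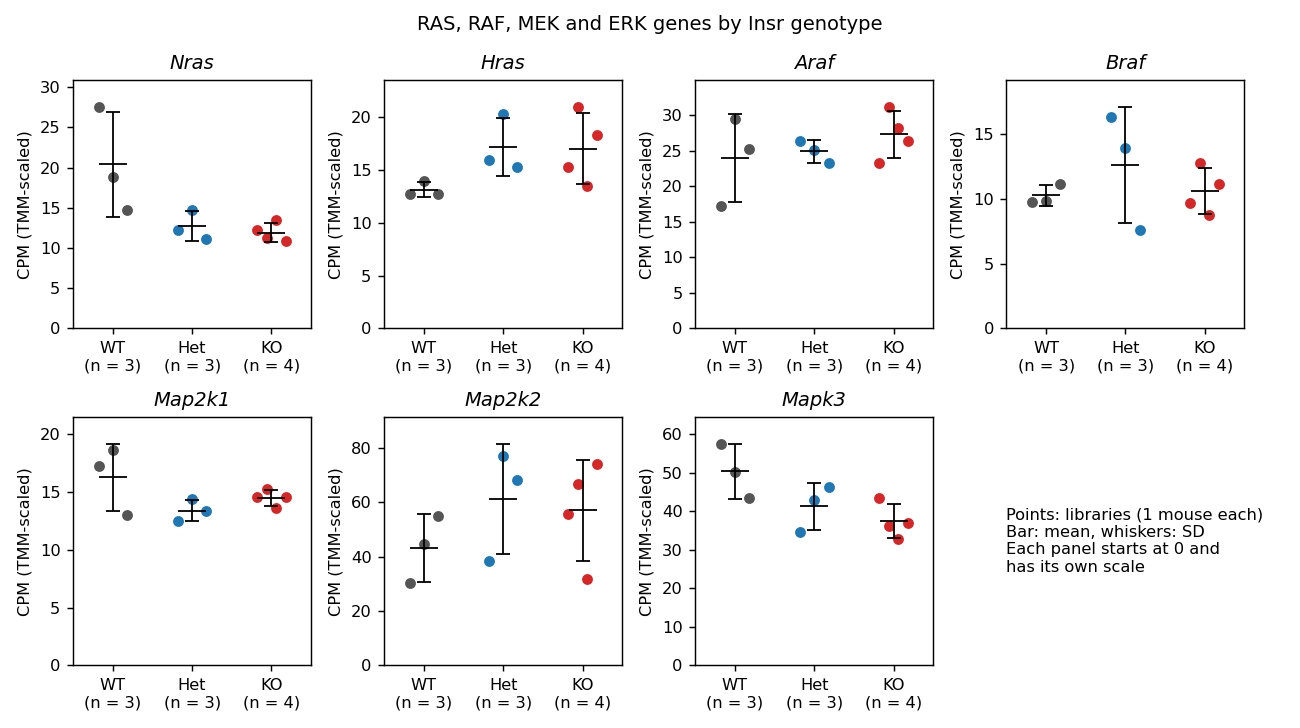
Level of each of the 7 genes in CPM after TMM scaling (vertical axes, each from 0) in WT, Het and KO libraries. Points are libraries of 1 mouse each, bars are means and whiskers SD. The 4 KO libraries of Nras lie between 10.8 and 13.5 CPM, below the WT libraries at 14.7 to 27.6 CPM, and the groups overlap for Araf, Braf, Map2k1, Map2k2 and Mapk3.

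The ratio of Nras to Hras counts within a library does not depend on how libraries are scaled. There were 2.18 Nras counts per Hras count for WT-2404, 1.35 for WT-1860 and 1.16 for WT-2067. The ratio was 0.773 in Het-2066, 0.728 in Het-1770 and 0.73 in Het-2042. In KO libraries it was 0.801 in KO-2079, 0.535 in KO-2070, 1.0 in KO-2124 and 0.591 in KO-2126. All 3 WT libraries therefore lay above all 7 libraries with a floxed allele. The share of all gene pairs that separate these libraries was not counted. The 2 highest ratios were in WT-2404 and WT-1860, with enzyme shares of 16.6% and 61.2%. Among floxed libraries the highest was in KO-2124, with an enzyme share of 65.4%. WT-2067, with a share of 74.6%, had a higher ratio than KO-2124. It also lay above Het-2066 and KO-2079, each with a share of 74.4%. The part of enzyme share in the ratio was not tested. The mean log2 ratio was 0.59 ± 0.47 over WT mice (SD, n = 3), -0.43 ± 0.049 over Het mice (SD, n = 3) and -0.49 ± 0.41 over KO mice (SD, n = 4). The KO ratios spread as widely as the WT ratios, and the 3 Het ratios were nearly equal. No test was made of the ratio, and counts are not per length, so it does not say which of the 2 transcripts is more abundant.

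Araf and Braf encode RAF kinases, which RAS recruits to the membrane. Araf, at chrX:20797814-20860519 on the plus strand, had 17.2 CPM in WT-2404, 29.5 CPM in WT-1860, and 25.2 CPM for WT-2067. It ran from 23.3 to 26.4 CPM in Het and from 23.3 to 31.2 CPM in KO libraries. WT-2404 was the lowest of the 10 libraries, and the other WT libraries lay within or above the Het range. The log2 fold changes were 0.19 (SE 0.20) for KO over WT and 0.06 (SE 0.21) for Het over WT (edgeR adjusted p = 0.575 and 0.890), and -0.0066 and -0.12 without WT-2404.

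Braf, at chr6:39603237-39725463 on the minus strand, had 9.76 CPM in WT-2404, 9.85 CPM in WT-1860, and 11.2 CPM for WT-2067. Its Het libraries were spread over 2.14 times, with 16.3 CPM in Het-2066, 13.9 CPM in Het-1770 and 7.61 CPM in Het-2042; the first is the highest and the last the lowest of the 10 libraries. It ran from 8.76 to 12.8 CPM in KO libraries. The log2 fold changes were 0.04 (SE 0.24) in KO against WT, 0.29 (SE 0.26) in Het against WT and -0.26 (SE 0.25) in KO against Het, none past the threshold in edgeR. Leaving out WT-2404 gave -0.0050 for KO over WT. Het against WT was 0.57 without Het-2042 and 0.066 without Het-2066. In the GENCODE M21 annotation Braf exons overlap exons of Ndufb2, on the other strand, over 146 bases, and Araf exons overlap those of Syn1 over 9 bases. The strand setting of the counting is not given in the sources used here, so both genes carry that uncertainty.

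Map2k1 and Map2k2 encode the kinases MEK1 and MEK2, which phosphorylate ERK. Map2k1, at chr9:64185770-64253631 on the minus strand, was among the steadiest of the 7 transcripts within the floxed groups. It had 17.2 CPM in WT-2404, 18.6 CPM in WT-1860, and 13.0 CPM for WT-2067. It ran from 12.5 to 14.4 CPM in Het and from 13.6 to 15.3 CPM in KO libraries, with coefficients of variation of 7.08% and 4.76%. WT-1860 and WT-2404 lay above all 7 floxed libraries and WT-2067 lay among them. The log2 fold changes were -0.17 (SE 0.17) for KO over WT and -0.28 (SE 0.18) for Het over WT, with edgeR adjusted p-values of 0.549 and 0.370. They were -0.09 and -0.20 with the enzyme share as a covariate.

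Map2k2, at chr10:81105915-81133975 on the plus strand, varied widely within every group. It had 30.2 CPM in WT-2404, 44.6 CPM in WT-1860, and 55.2 CPM for WT-2067. Among Het mice, Het-2066 had 38.4 CPM, Het-1770 had 77.3 CPM and Het-2042 had 68.4 CPM. Among KO mice, KO-2079 had 55.8 CPM, KO-2070 had 66.8 CPM, KO-2124 had 31.7 CPM and KO-2126 had 74.0 CPM. The 2 lowest libraries, WT-2404 and KO-2124, came from different groups and had enzyme shares of 16.6% and 65.4%. The highest, Het-1770 and KO-2126, had shares of 79.3% and 80.6%. Het-2066, with a share of 74.4%, had less Map2k2 than WT-1860, with 61.2%, and than KO-2079, with 74.4%. The log2 fold changes were 0.40 (SE 0.33) for KO over WT and 0.50 (SE 0.35) for Het over WT (edgeR adjusted p = 0.472 and 0.412). They were 0.18 and 0.31 without WT-2404, and -0.070 and 0.041 with the enzyme share as a covariate. The part of the enzyme-rich cells in the Map2k2 level was not tested further.

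Map2k2 made up 63.7% to 84.3% of the counts of both MEK genes. The log2 ratio of Map2k1 to Map2k2 counts was -1.39 ± 0.65 over WT mice (SD, n = 3), -2.14 ± 0.44 over Het mice (SD, n = 3) and -1.91 ± 0.49 over KO mice (SD, n = 4). Its highest values were -0.81 in WT-2404, -1.22 in KO-2124 and -1.26 in WT-1860, so the groups overlapped. The log2 ratio of Araf to Braf counts was 1.19 ± 0.38 over WT mice (SD, n = 3), 1.05 ± 0.49 over Het mice (SD, n = 3) and 1.37 ± 0.21 over KO mice (SD, n = 4), with overlapping ranges.

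Mapk3 encodes ERK1, the kinase at the end of the cascade, and lies at chr7:126759601-126765819 on the plus strand. It averaged 50.3 ± 7.10 CPM over WT mice (SD, n = 3), 41.2 ± 6.05 CPM over Het mice (SD, n = 3) and 37.4 ± 4.40 CPM over KO mice (SD, n = 4). Among WT mice, WT-2404 had 57.5 CPM, WT-1860 had 50.0 CPM and WT-2067 had 43.3 CPM. Among Het mice, Het-2066 had 34.5 CPM, Het-1770 had 42.9 CPM and Het-2042 had 46.2 CPM. Among KO mice, KO-2079 had 43.4 CPM, KO-2070 had 36.2 CPM, KO-2124 had 32.9 CPM and KO-2126 had 37.0 CPM. KO-2079 and WT-2067 were level, and the other 3 KO libraries lay below all WT libraries. Between KO and WT the log2 fold change came to -0.43 (SE 0.19) and did not pass in edgeR (adjusted p = 0.194, unadjusted p = 0.0402). It was -0.32 without WT-2404. Het against WT gave -0.29 (SE 0.20, edgeR adjusted p = 0.416), and -0.16 without WT-2404, and KO against Het -0.14 (SE 0.19).

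The order of WT, Het and KO means in Mapk3 was that of Nras, and both followed the WT libraries in the same order, WT-2404, WT-1860, WT-2067.

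**Figure D2:**
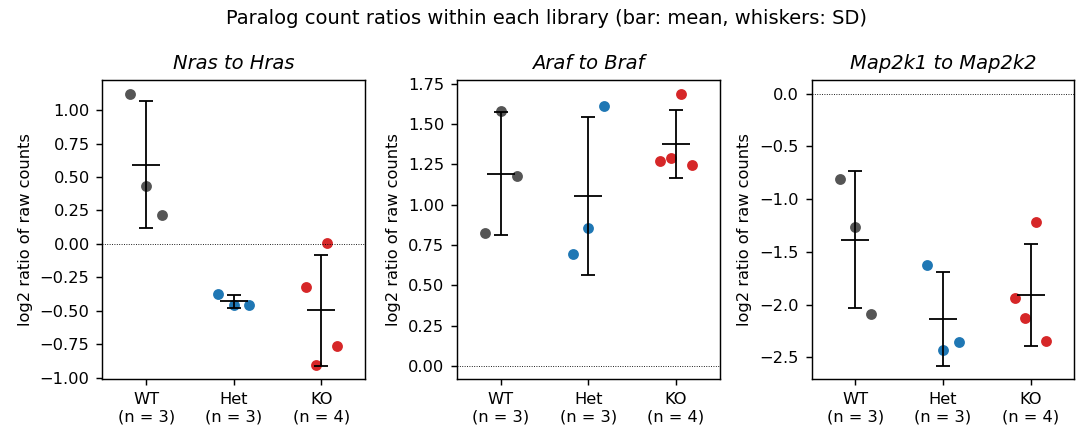
Log2 ratios of raw counts of 3 gene pairs (vertical axes) in WT, Het and KO libraries, with a dotted line at equal counts. Points are libraries, bars are means and whiskers SD. The 3 WT libraries of Nras to Hras lie above all Het and KO libraries, and the groups of the other pairs overlap. The share of all gene pairs with groups apart was not counted.

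In KO against WT, 0 of the 7 genes passed an adjusted p of 0.05 in edgeR, as did 0% of all genes tested. At an unadjusted p under 0.05 there were 2, Nras and Mapk3, both with a log2 fold change below 0, where 13.9% of all genes had that p in that direction, 9.61% in the other and 23.5% in either. Only Nras of the 7 had KO and WT ranges that did not overlap, lower in KO, where 9.15% of all genes did so and 6.74% did so with KO higher. The median log2 fold change of the 7 genes was 0.04, beside 0.03 for all genes, with 3 of 7 below 0 beside 48.1% of all genes. Without WT-2404 the median of the 7 was -0.0066, beside 0.03 for all genes. Then 5 of 7 were below 0, beside 6497 of 13768 genes. In that edgeR fit 1, Nras, had an unadjusted p under 0.05, with a value below 0. Of all genes 5.29% had that p and direction and 4.13% the other direction.

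In Het against WT, 0 of 7 genes passed in edgeR, beside 0% of all genes. Nras alone had an unadjusted p under 0.05, with a value below 0, where 11.6% of all genes had that p and direction, 8.26% the other direction and 19.8% either. Hras alone had ranges apart, higher in Het, where 11.3% of all genes did and 13.5% lay lower. Values below 0 were found for 3 of 7 genes, beside 49.7% of all genes. The median was 0.06 over the 7 genes and 0.0046 over all genes. Without WT-2404 the median of the 7 was -0.12, beside 0.02 for all genes, and 4 of 7 were below 0, beside 6654 of 13768 genes. Of the 7, 0 then had an unadjusted p under 0.05 in edgeR, beside 3.61% of all genes lower and 4.26% higher. In KO against Het, 0 of 7 passed in edgeR or in DESeq2, beside 0% of all genes in edgeR. None of the 7 had an unadjusted p under 0.05 in edgeR, beside 0.752% of all genes (0.351% lower and 0.402% higher), and 0 had ranges apart, beside 1.16% lower and 1.3% higher. Values below 0 were found for 5 of 7, beside 48.5% of all genes. The values ran from -0.26 in Braf to 0.13 in Araf with SE of 0.17 to 0.33, which do not show that the groups were equal.

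**Figure D3:**
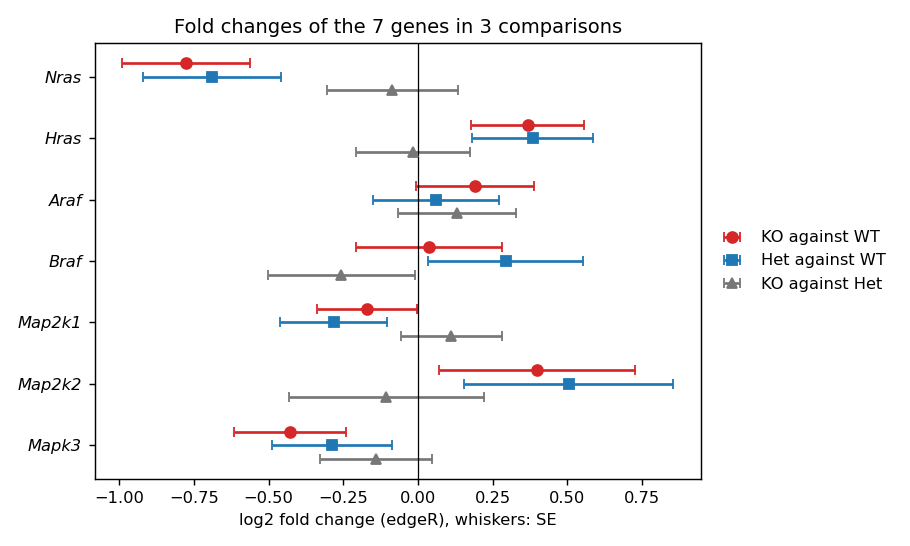
Log2 fold changes of the 7 genes (horizontal axis) in 3 comparisons, from edgeR, with whiskers of 1 SE. Nras, at -0.78 and -0.69 against WT, lies farthest from 0, and the values of KO against Het lie between -0.26 and 0.13.

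**Figure D4:**
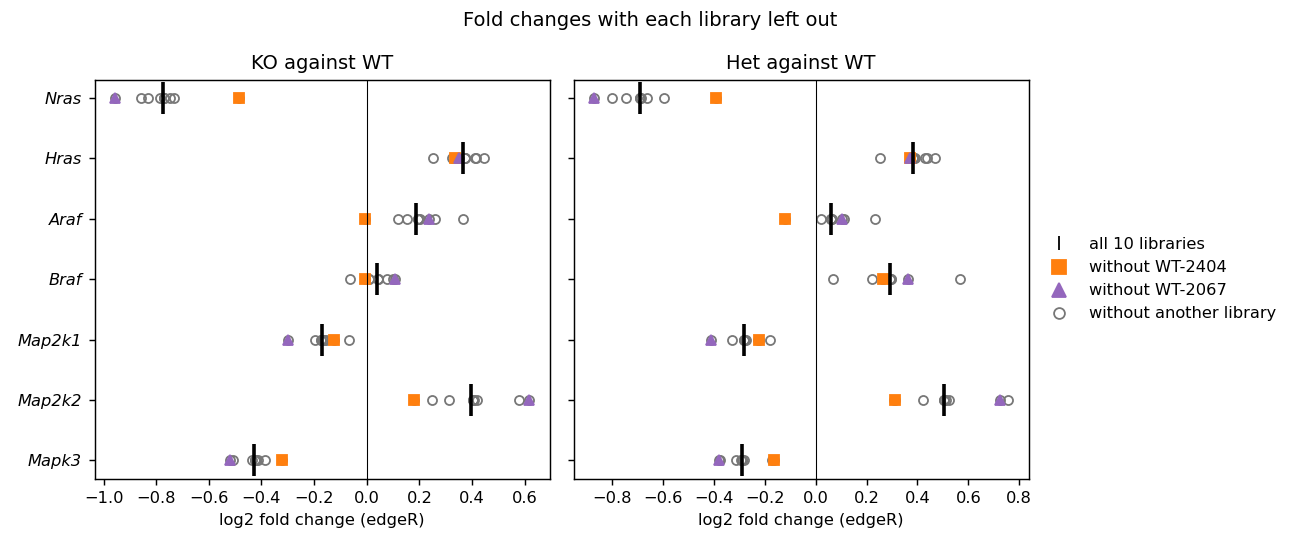
Log2 fold changes of the 7 genes against WT (horizontal axes) with all 10 libraries and with each library left out. Nras stays below 0 throughout, from -0.96 to -0.49 in KO against WT, and Araf moves from 0.19 to -0.0066 without WT-2404.

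Levels of different genes were compared per kilobase of merged GENCODE M21 exons, from 2257 bases in Mapk3 to 13862 in Braf. Mapk3 had the highest level in every library, 14.6 to 25.5 CPM per kilobase. Map2k2 came next by its group means, 7.65 to 10.8 CPM per kilobase, with single libraries at 5.33 to 13.6. Map2k1, Araf, Hras and Nras lay between 2.03 and 5.61 CPM per kilobase over all libraries. In WT libraries the ranges of Nras, Hras and Araf overlapped. In Het and KO libraries Nras, at 2.08 to 2.76 and 2.03 to 2.53, lay below the other 3, which began at 3.56 in each group. Those 3 overlapped one another in KO libraries. In Het libraries Hras, from 4.08 upward, lay above Araf, which reached 4.04. In WT libraries Nras was at 3.82 ± 1.23 and Hras at 3.51 ± 0.197 CPM per kilobase (SD, n = 3). In KO libraries they were at 2.24 ± 0.222 and 4.55 ± 0.893 CPM per kilobase (SD, n = 4). Braf was lowest in every library, at 0.549 to 1.18 CPM per kilobase. Merged exons count every annotated exon, whether or not it was used in these libraries.

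By the closest pattern of log2 CPM over the 10 libraries, Nras was most like Ywhah, which encodes a 14-3-3 protein that binds RAF (Pearson r = 0.972), with Ctsc (r = 0.97), which encodes the protease cathepsin C, also among the closest. Without WT-2404 and WT-1860, the libraries farthest from the median enzyme share, these were 0.934 and 0.784. Mapk3 was most like Serinc2 (r = 0.99, and 0.981 without those 2), Pfn1, which encodes the actin-binding profilin, and Plp2. Map2k2 was most like Kdelr1, which encodes a receptor that returns proteins to the endoplasmic reticulum (r = 0.981, and 0.987 without those 2), Nabp2 and Slc25a39. Hras was most like Rnf220, Nupr1 and Cars, with r of 0.968, 0.953 and 0.943. Araf was closest to Cdk10, Ulk3 and Vegfa, and Braf to Mzt1, Rap1a and Gucy1a2. Map2k1 was closest to Adrbk1, Gli2 and BC026585, with r of 0.922, 0.907 and 0.904 over 10 libraries and 0.718, 0.648 and 0.789 without those 2. These are among the highest of all genes tested and describe 10 libraries that also differ in enzyme share, so no test is given.

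Around the 7 genes, 96 further genes of the cascade in 7 lists were all in the table and all tested. In edgeR 0 of 96 passed in KO against WT, Het against WT or KO against Het. In KO against WT 63 of 96 had a log2 fold change below 0, and 20 had an unadjusted p under 0.05 with a value below 0 and 3 above 0, beside 13.9% and 9.61% of all genes. The count below 0 was 12 without WT-2404, where 5.29% of all genes had that p and direction. With the enzyme share as a covariate it was 6, where 761 of 13688 genes had that p in either direction. In Het against WT the count was 17 in the main fit, beside 11.6% of all genes, and 6 without WT-2404, beside 3.61%. DESeq2 called 11 of the 96 in KO against WT, 10 of them lower in KO, beside 7.37% of all genes. The 21 pathway genes named here are the 3 of each list with the smallest edgeR p in KO against WT. Of these 21 DESeq2 called 9, which were Cnksr3, Iqgap1, Mapk6, Ralgds, Rasa3, Rasgrp4, Rps6ka4, Rras and Ywhah. Both methods used the same counts and comparison, so this count is no separate support. Without WT-2067 edgeR called 16 of 96, 15 of them lower, beside 13.6% of all genes.

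Among RAS-related GTPases 9 of 11 genes were below 0 in KO against WT, with a median of -0.48, and 5, all below 0, had an unadjusted p under 0.05, beside 13.9% of all genes in that direction. Without WT-2404 the median was -0.25 and 1 of 11 had that p and direction, beside 5.29% of all genes. Rras, which encodes R-RAS, averaged 12.4 ± 4.49 CPM over WT mice (SD, n = 3) and 6.39 ± 1.21 CPM over KO mice (SD, n = 4), with ranges apart (log2 fold change -0.95, SE 0.27, edgeR adjusted p = 0.116). Rap2a and Ralb, of the RAP and RAL branches, stood at -0.72 and -0.76. Without WT-2404 Rras, Rap2a and Ralb were at -0.64, -0.44 and -0.49, and with the enzyme share as a covariate at -0.46, -0.30 and -0.34.

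Of 14 adaptors and exchange factors, which load RAS with GTP or bring the loading factor to receptors, 9 were below 0 and the median was -0.13. Ralgds, an exchange factor for RAL that RAS binds, was at -0.78 (SE 0.20). Rasgrp4 and Rasgrp1, exchange factors of blood cells, were at -1.34 (SE 0.37) and -1.51 (SE 0.51). Their levels were low, at most 7.62 CPM for Rasgrp4 and 5.51 CPM for Rasgrp1. All 3 had KO and WT ranges apart and did not pass in edgeR (adjusted p = 0.116, 0.116 and 0.129). These 3 were named for the smallest p in the same comparison, which favours ranges apart. Of all 14, 5 had ranges apart with KO lower and 1 with KO higher, beside 9.15% and 6.74% of all genes. With the enzyme share as a covariate Rasgrp4 was at -0.86. Of the same family, Rasgrp2 was at -0.86 (SE 0.52) in KO against WT with all 10 libraries. Rasgrp3 went the other way, at 0.28 (SE 0.30), or 0.57 without WT-2404.

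Of 14 GTPase-activating proteins and SPREDs, which turn RAS or its coupling to RAF off, 11 were below 0, with a median of -0.32, or -0.19 without WT-2404. Rasa3 stood at -1.10 (SE 0.33), Rasal3, a GTPase-activating protein of blood cells, at -1.16 (SE 0.50) and Dab2ip at -0.33 (SE 0.18). With the enzyme share as a covariate Rasa3 was at -0.52 and Dab2ip at -0.17, and Rasal3 was at -0.59 without WT-1860. Of 9 genes of RAS prenylation and trafficking, which place RAS at membranes, 4 were below 0, the median was 0.02, and 0 had an unadjusted p under 0.05 in edgeR. Zdhhc9, Fntb and Rce1 had the smallest p among them, at -0.37 (SE 0.21), -0.27 (SE 0.28) and 0.21 (SE 0.23). Without WT-2404 Zdhhc9 was at -0.22 and Fntb at -0.08, and with the enzyme share as a covariate they were at -0.22 and -0.11.

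Of 24 scaffolds and RAF regulators 16 were below 0, with a median of -0.25. Ywhah had 38.9 CPM in WT-2404, 33.0 CPM in WT-1860, and 24.0 CPM for WT-2067, and 15.3 to 20.4 CPM in KO libraries (log2 fold change -0.85, SE 0.19, edgeR adjusted p = 0.116). Iqgap1, a scaffold that binds RAF, MEK and ERK, averaged 99.8 ± 28.0 CPM over WT mice (SD, n = 3) and 56.4 ± 10.7 CPM over KO mice (SD, n = 4) (log2 fold change -0.82, SE 0.23). Without WT-2404 Ywhah and Iqgap1 were at -0.67 and -0.57, and with the enzyme share as a covariate at -0.56 and -0.47. Cnksr3, of the connector family of scaffolds, stood on the other side, at 4.32 to 5.09 CPM in WT, 6.71 to 7.90 CPM in Het and 6.09 to 15.3 CPM in KO libraries. Between KO and WT its log2 fold change came to 1.15 (SE 0.27, edgeR adjusted p = 0.116), with ranges apart in both comparisons against WT, and -0.14 by library size alone, above the shift of -1.17 in all genes.

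Of 8 kinases that ERK activates 4 were below 0, and the median was -0.07, or 0.02 without WT-2404. Rps6ka4, which encodes MSK2, averaged 15.8 ± 2.41 CPM over WT mice (SD, n = 3), 11.9 ± 1.53 CPM over Het mice (SD, n = 3) and 9.13 ± 1.64 CPM over KO mice (SD, n = 4), with a log2 difference between KO and WT of -0.79 (SE 0.19, edgeR adjusted p = 0.116). Rps6ka1, which encodes RSK1, and Mknk2, which encodes MNK2, stood at -0.65 (SE 0.22) and -0.57 (SE 0.22). Mknk2 was at -0.34 without WT-2404 and at -0.22 with the enzyme share as a covariate. Of 16 genes of the parallel p38, JNK and ERK5 modules and atypical MAP kinases 10 were below 0, with a median of -0.07. Mapk6, which encodes the atypical kinase ERK3, was at -0.72 (SE 0.18) with ranges apart, and Mapk7 and Mapk11 at -0.46 (SE 0.23) and -1.37 (SE 0.70). Mapk7 was at -0.28 with the enzyme share as a covariate, and Mapk11 at -0.85 without WT-1860.

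**Figure D5:**
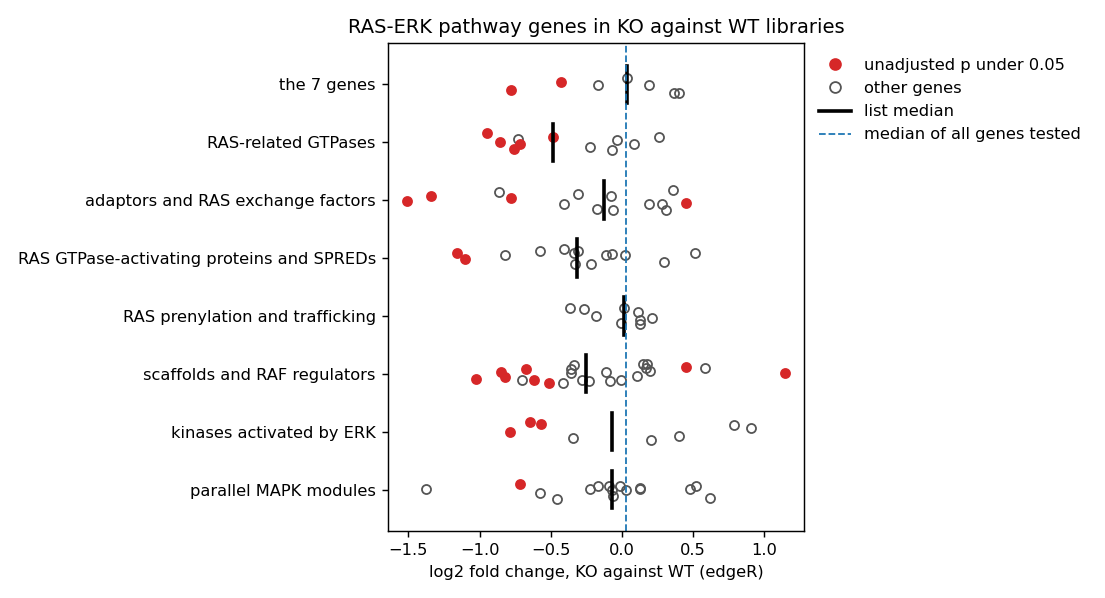
Log2 fold changes in KO against WT (horizontal axis) of the 7 genes and of 96 genes in 7 lists of the cascade, with list medians and the median of all genes tested. Filled points have an unadjusted p under 0.05, and no point passed the adjusted threshold. The median of RAS-related GTPases, -0.48, lies farthest from that of all genes, and the 7 genes have their median at 0.04.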

How the data were processed

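The authors deposited raw counts per gene symbol, whole numbers, 1 column per mouse. The submitters' processing notes name mm10, DRAGEN, STAR and Cufflinks without roles. Per the labels' protocols, the text of WT-2404, which lists all groups, names frozen, pulverised tissue and the RNeasy Micro Kit, and the text of the other 9 libraries names an RNeasy kit and NEBNext Ultra II Stranded mRNA; whether WT-2404 was made differently is not given in the sources used here. The labels count 1 WT mouse more, not analysed here, and part of the genotype, shared by all groups, and some genes are not reported here. All 10 columns were matched by title. The 2 rows that name no gene were left out (no_feature 2.59% to 8.71%, ambiguous 0.101% to 0.584% of counts).

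Genes were filtered with filterByExpr (minimum count 10), scaled with TMM and tested with edgeR 4.0.16 (quasi-likelihood, robust, two-sided) in 1 fit over 10 libraries without covariates, with Benjamini-Hochberg adjustment over all genes and a threshold of 0.05. Log2 CPM used a prior count of 2. SE came from the quasi-F statistic. DESeq2 1.42.0, other scalings, no filter, the compared groups only, an enzyme-share covariate and leaving out each library were alternatives. The steps were checked on simulated data. Chi-square divided by its degrees of freedom was 26.5 to 988 between libraries of a group, so each counts as 1 replicate. Members had at least 85 counts in each library. No other GENCODE M21 transcript matched a member over 200 bases at 95% identity (BLAST 2.17.0+). Promoters were found for 6 of 7 genes. Named genes of each list are the 3 with the smallest p in KO against WT, and 3 closest patterns per member. The members, lists and tests were chosen with earlier results of these data known.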

Additional observations from a re-analysis of the deposited data

Results flagged for a closer look

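The log2 ratio of Araf to Braf counts was 1.69 for KO-2124, while the remaining 3 KO libraries lay at 1.25 to 1.29, so this library lay far from the rest of its group by Dixon's gap test. Of 10 values tested in the KO group this was the only one, and chance alone flags about 1 in 20. WT-1860 and Het-2042 had ratios of 1.58 and 1.61, close to that of KO-2124. Groups of 3 libraries were not tested.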

How the results depend on the processing

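No paired analysis was possible because the groups share no mouse numbers. The number of the 7 genes past the threshold was 0 in each comparison. In KO against WT it was 1 in DESeq2 and 2 by library size alone (Nras and Mapk3), and in Het against WT 3 by library size alone (Nras, Mapk3 and Map2k1). With single libraries left out it ran from 0 to 1 for KO over WT and likewise for Het over WT, where the 1 was Nras without WT-2067 in each. It was 0 under each alternative in KO against Het. The all-gene count in KO against WT was 0 in edgeR, 1009 in DESeq2, 2841 when scaled only by library size and, in edgeR without WT-2067, 1932. In Het against WT these counts were 0, 326, 3140 and 1160.

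By library size alone all genes shift down against WT. Signs then turned in KO against WT for Araf (-0.86), Braf (-1.18), Hras (-0.89), Map2k2 (-0.74), Rce1 (-0.98) and Cnksr3 (-0.14). They turned in Het against WT for Araf (-1.16), Braf (-1.05), Hras (-0.99) and Map2k2 (-0.69), and in KO against Het for Hras (0.10), Mapk3 (0.0095) and Nras (0.14). With the enzyme share as a covariate they turned for Araf (-0.052), Braf (-0.083) and Map2k2 (-0.070) in KO against WT and for Araf (-0.19) in Het against WT. The cause was not tested. Leaving out single libraries gave -0.0066 to 0.36 for Araf and -0.062 to 0.11 for Braf in KO against WT, -0.12 to 0.23 for Araf in Het against WT, and -0.13 to 0.12 for Hras, -0.35 to 0.093 for Map2k2 and -0.18 to 0.032 for Nras in KO against Het. Nras and Mapk3 stayed below 0 against WT under every alternative run. The counts of pathway genes below 0.05 in unadjusted p between KO and WT ran from 12 to 27 below 0 and from 1 to 7 above 0 with single libraries left out, and were 67 and 0 by library size alone. These pathway alternatives were chosen after seeing the data. Groups of 3 and 4 mice limit precision, and members had at least 85 counts in each library.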

Other observations

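The 14-3-3 genes, whose proteins bind phosphorylated RAF, were singled out after their values were seen. In KO against WT, Ywhah, Ywhaz and Ywhag had ranges apart, with log2 fold changes of -0.85 (SE 0.19), -0.68 (SE 0.22) and -0.51 (SE 0.22), where 9.15% of all genes had ranges apart with KO lower. Without WT-2404 these were -0.67, -0.55 and -0.41. Ywhab stood at -0.62 (SE 0.24), with overlapping ranges, or -0.38 without WT-2404, and Ywhae and Ywhaq at -0.11 (SE 0.25) and -0.08 (SE 0.16). None of the 6 passed in edgeR, where the smallest adjusted p was 0.116. Ywhae was the most counted of them, averaging 111 ± 7.71 CPM over WT mice (SD, n = 3) and 103 ± 26.1 CPM over KO mice (SD, n = 4).

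In the 250 bases before its RefSeq start, Braf has 2 matches to TGACGTCA, a motif present in 1.55% of 32851 such windows, and Araf has 3 to CCAAT. The Araf window, chrX:20848293-20848542, lies inside the GENCODE span given above, so the 2 annotations place its start differently. These matches count letters only.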
